A study of Mus musculus with 12 samples.

Results

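The genes described are 9 components of the NRF2 antioxidant response, namely the transcription factor gene Nfe2l2 (NRF2), its inhibitor Keap1 and the 7 target genes Nqo1, Gclc, Gclm, Txnrd1, Srxn1, Osgin1 and Prdx1. They were chosen by gene symbol, and all 9 were found among the 37681 genes of the deposited count table and had enough reads to be tested. RNA was sequenced from a thin layer of the kidney cortex of untreated male C57BL/6 mice, 18 months old. The 3 TG+ mice carried the TRACK transgene (gamma-HIF1alphaM3, in the series title GGT-HIF1aM3), a mutant, constitutively active HIF1α that the study places in the renal proximal tubule, and the 3 TG- mice were wild-type littermates without it. The 2 kidneys of each mouse gave 1 library each, 12 libraries in all, and were summed per mouse, so that n = 3 mice per group. In RNA from the mixed cells of cortex tissue, fewer cells of a type and less RNA per cell cannot be told apart.

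NRF2 is a transcription factor that is kept low in resting cells because KEAP1, an adaptor of a CUL3 ubiquitin ligase, marks it for breakdown. Oxidants and electrophiles modify cysteines of KEAP1, NRF2 then accumulates, pairs with a small MAF protein and binds antioxidant response elements beside genes for glutathione synthesis, thioredoxin recycling, quinone reduction and detoxification. The pathway is controlled largely at the protein level, which these mRNA values do not show, and the kidney proximal tubule is a site where it is known to act against oxidant injury.

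Each library held 21888584 to 33704850 reads on genes, and each mouse 48052131 to 60506785. CPM stands for the reads of a gene relative to the TMM-scaled library size, and a gene was called when edgeR's quasi-likelihood test gave it an adjusted p below 0.05 over 19399 genes. By that rule 26.2% of all tested genes were called, 15.4% higher and 10.9% lower in TG+ kidney cortex. Ndufa4l2 and Car9, known HIF1α targets, did not overlap between the labelled genotypes (163 to 238 against 2.33 to 3.68 CPM, and 122 to 166 against 11.7 to 17.6 CPM), whereas Hif1a, in whose row reads of the transgene were not separated, lay at 86.3 to 109 CPM in TG+ and 103 to 107 in TG- mice. The summed level of 15 proximal tubule markers was 34920 to 38350 CPM in TG+ and 47460 to 50690 in TG- mice, with 10 of the 15 called lower (Slc34a1, Lrp2 and Slc22a6 among them) and a median log2 fold change of -0.46. The summed level of 15 immune markers was 178 to 199.5 against 101 to 129 CPM, with 10 of the 14 tested called higher and the neutrophil marker Ly6g at 0 reads in every mouse, and all 8 endothelial markers were called higher. Of 8 tubule injury markers 5 were called higher (median log2 fold change 1.30, summed level 998 to 1179 against 814 to 1023 CPM), with Havcr1 at 12.5 to 26.0 CPM in TG+ and 0.798 to 5.07 CPM in TG- mice. Of 6 fibroblast markers 4 were called higher (median 0.65, summed level 205 to 278 against 136 to 160 CPM), and of 10 loop and distal nephron markers 1 was called lower (median 0.05). The part of these shifts in the results on the 9 genes was not tested.

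Of the 9 genes, Keap1 was higher and Nqo1 and Prdx1 were lower in TG+ kidney cortex, while Nfe2l2, Gclc, Gclm, Txnrd1, Srxn1 and Osgin1 were not called. The 3 calls are 33.3% of the 9 genes, beside 26.2% of all tested genes. By the study's stricter rule, an adjusted p below 0.01 and a change of more than 2-fold, 0 of the 9 genes were called by edgeR and 0 by DESeq2, beside 3.98% of all genes, and 5 of the 9 had an unadjusted p under 0.05 in edgeR, beside 39.1% of all genes. The 3 TG+ mice lay all above or all below the 3 TG- mice for 4 genes (Keap1, Nqo1, Prdx1 and Nfe2l2), beside 44.2% of all tested genes. The 9 log2 fold changes had a median of -0.07, against 0.01 over all tested genes.

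**Figure D1:**
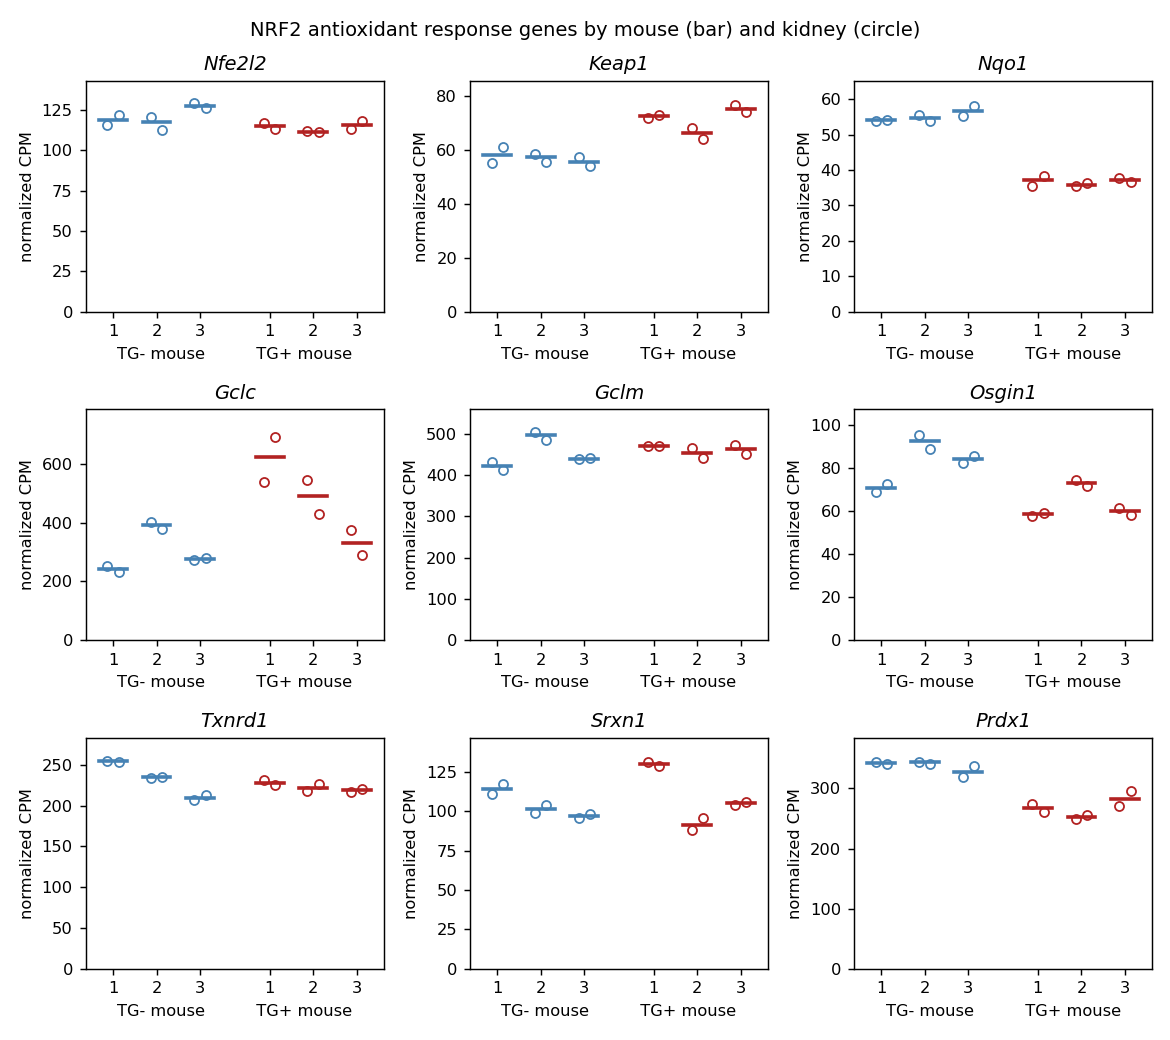
Normalized CPM (linear axes from 0) of the 9 genes, with a circle for each kidney and a bar for the mouse, in TG- (blue) and TG+ mice (red). Nqo1 stood at 35.8 to 37.3 CPM in the TG+ mice and 54.0 to 56.6 in the TG- mice, and Gclc ranged from 332 to 621 CPM among the TG+ mice.

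Sequence from before the start sites is shown for the 3 called genes, since these are the genes whose mRNA differed. Each window spans 250 bases before to 50 after a RefSeq start site in GRCm38.p6 and is written 5′ to 3′ on the gene's strand. Capitals mark matches, on either strand, to the core of the antioxidant response element (TGACNNNGC) or of the hypoxia response element (ACGTG), 2 motifs that did not overlap in these windows.

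Nqo1 (chr8:107403156-107403455, minus strand): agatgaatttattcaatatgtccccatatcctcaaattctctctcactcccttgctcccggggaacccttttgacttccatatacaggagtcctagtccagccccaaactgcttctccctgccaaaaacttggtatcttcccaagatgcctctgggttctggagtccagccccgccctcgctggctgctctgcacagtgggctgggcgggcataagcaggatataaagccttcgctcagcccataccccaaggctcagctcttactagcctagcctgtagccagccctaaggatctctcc

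Prdx1 (chr4:116685349-116685648, plus strand): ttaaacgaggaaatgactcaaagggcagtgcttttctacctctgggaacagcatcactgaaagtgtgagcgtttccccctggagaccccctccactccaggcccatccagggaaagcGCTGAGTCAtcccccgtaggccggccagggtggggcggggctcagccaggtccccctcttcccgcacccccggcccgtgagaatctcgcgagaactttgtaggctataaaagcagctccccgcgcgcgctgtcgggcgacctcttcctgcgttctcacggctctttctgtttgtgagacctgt

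Keap1 (chr9:21239283-21239582, minus strand): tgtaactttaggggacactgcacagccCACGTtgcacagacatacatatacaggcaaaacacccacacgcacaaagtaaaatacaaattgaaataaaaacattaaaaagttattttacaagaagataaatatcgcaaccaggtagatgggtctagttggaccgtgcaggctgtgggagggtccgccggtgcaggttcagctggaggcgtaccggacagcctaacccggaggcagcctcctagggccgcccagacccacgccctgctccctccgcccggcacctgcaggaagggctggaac

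The Prdx1 window held 1 antioxidant element match that begins 133 bases before the start, the Keap1 window held 1 hypoxia element match 223 bases before it, and the Nqo1 window held neither motif. Among the 8 genes with a RefSeq window, 5 had an antioxidant element match (Nfe2l2, Srxn1, Gclm, Prdx1 and 1 of the 3 start sites of Txnrd1), and 2 had a hypoxia element match (Keap1 and Gclm). The bases after the RefSeq start of the Nfe2l2 window were found in no GENCODE transcript of that gene, unlike those of the other windows. Of all 32851 windows, 12.4% held the antioxidant and 19.6% the hypoxia element core. A match is a description of the letters, and distal elements lie outside these windows. Gclc had no window.

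Nfe2l2 (chromosome 2, 75675513 to 75704641, GRCm38), which encodes NRF2, stood at 115, 112 and 116 CPM in TG+ mice 1 to 3 and at 119, 117 and 128 CPM in TG- mice 1 to 3. Every TG+ mouse lay just below every TG- mouse, and the gap between the groups was smaller than the spread among the TG- mice. The log2 fold change was -0.09 ± 0.05 (SE, 95% interval -0.21 to 0.04, adjusted p = 0.284 from edgeR), and scaling by library size alone turned it to 0.03. Its mRNA therefore differed by less than the test could call, and the interval excludes a change as large as that of Nqo1.

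Keap1 (chromosome 9, 21229730 to 21239361), the inhibitor that hands NRF2 to the ubiquitin ligase, stood at 72.4, 66.1 and 75.3 CPM in the TG+ mice and at 58.0, 57.4 and 55.7 CPM in the TG- mice. Each TG+ mouse exceeded each TG- mouse, and the same held for the 12 single libraries. The mean rose from 57.0 ± 1.21 to 71.3 ± 4.71 CPM (SD, n = 3), a rise of 25.0% (log2 fold change 0.32 ± 0.06 SE, 95% interval 0.18 to 0.46, adjusted p = 0.00784 from edgeR). The call held under all 15 alternative fits, with log2 fold changes of 0.27 to 0.44 and adjusted p of up to 0.0393 in edgeR. With 20 ways to assign the mice, the exact permutation test gave p = 0.1, the smallest value possible with 3 against 3, for Keap1 and likewise for Nfe2l2, Nqo1 and Prdx1 (2-sided).

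Glutathione synthesis was represented by both subunits of glutamate-cysteine ligase, the rate-limiting enzyme. Gclc (chromosome 9, 77754535 to 77794485), the catalytic subunit, stood at 621, 489 and 332 CPM in the TG+ mice and at 243, 392 and 276 CPM in the TG- mice. TG+ mouse 3 lay below TG- mouse 2, so the groups overlapped, and Gclc was the most variable of the 9 genes. Its kidneys differed by up to 1.30-fold within a mouse (690 and 539 CPM in TG+ mouse 1, 544 and 430 in TG+ mouse 2, 373 and 288 in TG+ mouse 3), whereas in the TG- mice they differed by at most 1.08-fold. The mean was 481 ± 145 CPM in TG+ and 303 ± 78.3 in TG- mice (SD, n = 3), a log2 fold change of 0.66 ± 0.24 (SE, 95% interval 0.10 to 1.23, adjusted p = 0.0822 from edgeR, exact permutation p = 0.2). This was not called, while 5 of the 15 alternatives called it, with adjusted p of 0.0104 to 0.226 over all 15. It was called (adjusted p of 0.0446 and 0.0318 in edgeR) without TG- mouse 2 or without TG+ mouse 3, where the log2 fold change was 0.89 and 0.86, and it was 0.42 without TG+ mouse 1. The other 3 were scaling by library size alone (0.79, adjusted p = 0.0447), kidney 1 alone (0.66, adjusted p = 0.0492) and each kidney as its own library (0.66, adjusted p = 0.0104), all from edgeR.

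Gclm (chromosome 3, 122245557 to 122270732), the modifier subunit that raises the enzyme's activity, stood at 470.5, 452 and 462 CPM in the TG+ mice and at 422, 496 and 439 CPM in the TG- mice. The TG+ mice all fell inside the TG- range. The log2 fold change was 0.03 ± 0.07 (SE, 95% interval -0.13 to 0.19, adjusted p = 0.795 from edgeR), and its exons overlap those of Gm17494 on the other strand, from which reads cannot be separated where counting ignores strand. The ratio of Gclc to Gclm, both as deposited RPKM and so per length, was 3.71, 3.06 and 2.04 in the TG+ mice and 1.64, 2.25 and 1.79 in the TG- mice, and these ranges also overlapped.

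Thioredoxin recycling and peroxide removal were represented by Txnrd1, Srxn1 and Prdx1. Prdx1 (chromosome 4, 116685544 to 116700822), a cytosolic peroxiredoxin that reduces hydrogen peroxide, stood at 267, 252 and 283 CPM in the TG+ mice and at 343, 343 and 328 CPM in the TG- mice. All TG+ mice lay below all TG- mice, as did all 6 TG+ libraries (249 to 296 CPM) below all 6 TG- libraries (319 to 344 CPM). Its level fell by 20.9%, from 338 ± 8.84 to 267 ± 15.5 CPM (SD, n = 3), a log2 fold change of -0.34 ± 0.06 (SE, 95% interval -0.48 to -0.20, adjusted p = 0.00590 from edgeR). The call held under all 15 alternatives, with log2 fold changes of -0.39 to -0.22 and adjusted p of up to 0.0205 in edgeR.

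Txnrd1 (chromosome 10, 82833951 to 82897712), the cytosolic thioredoxin reductase, stood at 228, 221 and 219 CPM in the TG+ mice and at 254.5, 235 and 210.0 CPM in the TG- mice. The groups overlapped, with the TG+ mice inside the TG- range, at a log2 fold change of -0.07 ± 0.07 (SE, 95% interval -0.24 to 0.11, adjusted p = 0.552 from edgeR). Srxn1 (chromosome 2, 152105516 to 152111376), sulfiredoxin, which restores overoxidized peroxiredoxins, stood at 130, 91.3 and 105 CPM in the TG+ mice and at 114, 101 and 97.0 CPM in the TG- mice. TG+ mice 1 and 2 were the highest and the lowest of the 6 mice, and the log2 fold change was 0.06 ± 0.13 (SE, 95% interval -0.23 to 0.35, adjusted p = 0.757 from edgeR). The reductase and the repair enzyme of peroxiredoxin were thus not called where Prdx1 itself was lower.

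The remaining targets were Nqo1 and Osgin1. Nqo1 (chromosome 8, 107388225 to 107403206), the quinone reductase that serves as a standard readout of NRF2 activity, stood at 37.1, 35.8 and 37.3 CPM in the TG+ mice and at 54.0, 54.8 and 56.6 CPM in the TG- mice. The highest TG+ library (38.4 CPM) lay well below the lowest TG- library (53.7 CPM). Nqo1 fell by 33.4%, from 55.1 ± 1.34 to 36.7 ± 0.804 CPM (SD, n = 3), a log2 fold change of -0.59 ± 0.05 (SE, 95% interval -0.70 to -0.47), and it had the smallest adjusted p of the 9 genes (2.31e-04 from edgeR). Taken alone, kidney 1 of each mouse gave -0.59 and kidney 2 gave -0.57 (adjusted p of 3.86e-04 and 4.72e-04 in edgeR), and all 15 alternatives gave -0.61 to -0.47.

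Osgin1 (chromosome 8, 119434124 to 119446256), an oxidative stress induced growth inhibitor, stood at 58.7, 73.1 and 60.0 CPM in the TG+ mice and at 70.6, 92.7 and 84.0 CPM in the TG- mice. TG+ mouse 2 lay above TG- mouse 1, so the groups overlapped. The log2 fold change was -0.37 ± 0.12 (SE, 95% interval -0.64 to -0.09, adjusted p = 0.0551 from edgeR, exact permutation p = 0.2), which was not called, although 9 of the 15 alternatives called it lower, with adjusted p of 0.00356 to 0.177 over all 15. The lowest, 0.00356, came from edgeR with each kidney as its own library, which treats kidneys of 1 mouse as independent. The 9 also include the replicate block for pairs of mice, a pairing not used in the main test.

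**Figure D2:**
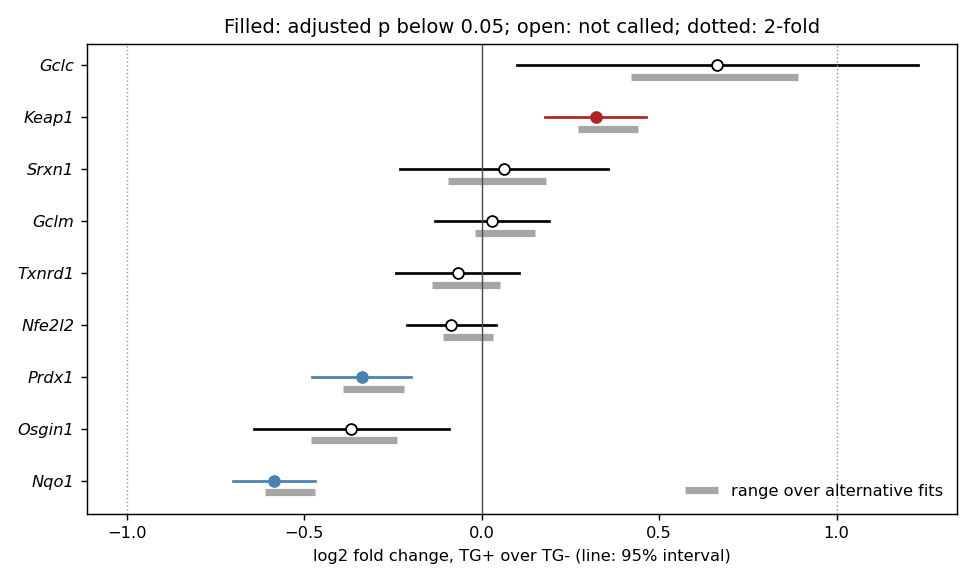
Log2 fold change, TG+ over TG-, of each gene (points, filled where the adjusted p was below 0.05) with the 95% interval (thin line) and the range over 15 alternative fits (grey bar). The intervals of Keap1, Prdx1, Nqo1 and Osgin1 lie clear of 0 and inside the dotted 2-fold lines. The interval of Gclc, from 0.10 to 1.23, is the widest, also lies clear of 0 and crosses a 2-fold line. The intervals are not adjusted for the number of genes tested, and neither Osgin1 nor Gclc was called.

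Compared per length, as deposited RPKM averaged over the 2 kidneys of a mouse, the 9 genes spanned a wide range of levels. In TG- kidney cortex the order was Gclc (89.5 ± 22.9 RPKM, SD, n = 3), Prdx1 (60.7 ± 1.51), Gclm (47.0 ± 3.93), Nqo1 (35.9 ± 0.916), Nfe2l2 (31.3 ± 1.49), Txnrd1 (17.0 ± 1.62), Srxn1 (17.0 ± 1.44), Osgin1 (10.2 ± 1.34) and Keap1 (7.30 ± 0.154). Of these neighbours only Txnrd1 and Srxn1 had overlapping ranges. In TG+ kidney cortex Nfe2l2 (28.8 ± 0.617 RPKM) stood above Nqo1 (23.3 ± 0.526), and Prdx1 (46.9 ± 2.85) and Gclm (46.7 ± 0.890) had overlapping ranges. Keap1 (8.89 ± 0.611) and Osgin1 (7.68 ± 0.957), the lowest of the 9 in both genotypes, had overlapping ranges in TG+ mice, from 8.23 to 9.44 and from 7.01 to 8.77 RPKM.

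**Figure D3:**
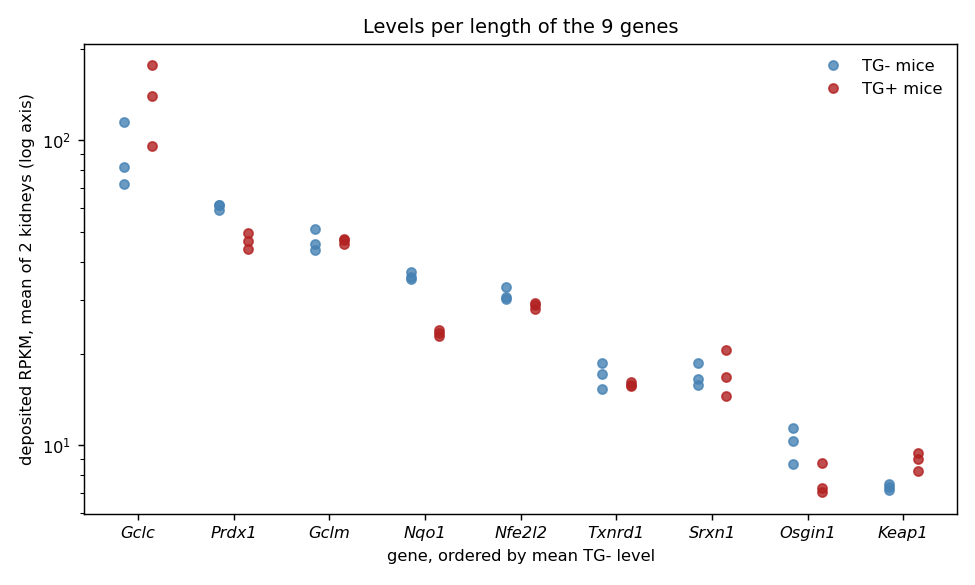
Deposited RPKM (log axis) of the 9 genes in each TG- (blue) and TG+ mouse (red), ordered by the mean TG- level. Nqo1 lies above Nfe2l2 in the TG- mice (35.9 against 31.3 RPKM) and below it in the TG+ mice (23.3 against 28.8 RPKM).

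The wider pathway was read from 7 lists of 86 further genes, of which 83 had enough reads to test. Of these, 18 were called higher, 18 lower and 47 not called by edgeR (43.4% called, beside 26.2% of all tested genes), with a median log2 fold change of -0.03. By the study's stricter rule 10 were higher and 0 lower in edgeR (12%, beside 3.98% of all tested genes, among which 732 were higher and 41 lower), and 9 were higher and 0 lower in DESeq2. At any p, the lowest log2 fold change of the 83 genes was -0.62. The direction of the balance at an adjusted p below 0.05 depends on scaling, tool and single mice. Without TG- mouse 2 it was 16 higher and 11 lower, and without TG- mouse 1 it was 15 and 17. By upper-quartile scaling 18 were higher and 24 lower, by DESeq2's size factors 18 and 21, and by DESeq2's test 19 and 27. The calls among all tested genes shifted in the same direction. They went from 2982 higher and 2105 lower in the main fit to 2883 and 2334, 2890 and 2307, and 2908 and 2444, in that order. By library size alone 25 were higher and 9 lower, and the median over all tested genes moved from 0.01 to 0.13. The falls of Txn1, Gsr, Glrx, Amer1, Rbx1, Idh1, Taldo1, Fth1 and Cat were not called by that scaling. Of the genes named from these lists, Gsr, Glrx, Amer1, Rbx1, Idh1, Taldo1, Fth1, Cat, Tkt and Txnip also lost their call without 1 or more of the mice, each with its direction kept, and Amer1, Idh1 and Fth1 lost it without 5 of the 6 mice in turn.

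Among 14 regulators and partners of NRF2, 1 was higher, 3 were lower and 10 were not called, with a median log2 fold change of -0.16. Maff, a small MAF protein that can pair with NRF2, rose from 2.95 ± 0.807 to 8.71 ± 3.04 CPM (SD, n = 3; log2 fold change 1.55 ± 0.30 SE, adjusted p = 0.00876 from edgeR). Mafg, another small MAF partner, fell by 0.39 on the log2 scale, from 123 to 138 CPM in the TG- mice to 92.1 to 104 CPM in the TG+ mice. Lower as well were Rbx1 (-0.20), the RING subunit of the ubiquitin ligase, and Amer1 (-0.32), a KEAP1-binding protein. Sqstm1 (p62), which sequesters KEAP1 and had the highest level of the list, stood at 431 to 536 CPM in TG+ and 535 to 578 CPM in TG- mice and was not called (-0.18, adjusted p = 0.163 from edgeR). Mafg overlaps exons of Sirt7, and Sqstm1 those of Mrnip.

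Beyond the ligase, 9 genes of glutathione synthesis and recycling gave 2 higher, 2 lower and 5 not called, with a median of -0.02. Chac1, which breaks glutathione down, was at 5.90, 5.04 and 4.92 CPM in the TG+ mice and at 0.994, 0.770 and 0.880 CPM in the TG- mice, the largest rise of the list (log2 fold change 2.58 ± 0.15 SE, adjusted p = 3.66e-05 from edgeR). Slc7a11, the cystine importer that supplies cysteine for glutathione, rose from 2.42 ± 0.386 to 5.82 ± 0.262 CPM (SD, n = 3; 1.26 ± 0.14 SE). Glutathione reductase, Gsr, and glutaredoxin, Glrx, were lower by edgeR's test (-0.44 and -0.29). Ggt1, which cleaves extracellular glutathione at the tubule's apical membrane, had the highest level (1076 to 1145 against 1198 to 1367 CPM) and was not called (-0.18, adjusted p = 0.0856 from edgeR).

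Of 12 genes of the thioredoxin and peroxiredoxin system, 2 were higher, 1 was lower and 9 were not called, with a median of -0.02. Prdx4, the peroxiredoxin of the endoplasmic reticulum, rose from 15.9 ± 0.905 to 26.4 ± 0.640 CPM (SD, n = 3; log2 fold change 0.73 ± 0.06 SE, adjusted p = 2.76e-04 from edgeR), in the opposite direction to Prdx1. Txnip, an inhibitor of thioredoxin, was higher (0.61), and thioredoxin itself, Txn1, was lower (-0.28). Prdx5, the most highly counted gene of the list, stood at 806 to 870 against 791 to 879 CPM and was not called (0.01, adjusted p = 0.899 from edgeR). Txnip overlaps exons of Gm15441, and Prdx5 those of Trmt112.

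NADPH is the reductant that NQO1, glutathione reductase and thioredoxin reductase all draw on. A list of 6 genes of NADPH supply and the pentose phosphate pathway gave 2 higher, 2 lower and 2 not called (median 0.14). Malic enzyme, Me1, rose from 294 ± 22.3 to 592 ± 71.3 CPM (SD, n = 3; log2 fold change 1.01 ± 0.10 SE, adjusted p = 4.15e-04 from edgeR), with reads that A330041J22Rik exons could share. Transketolase, Tkt, was higher by 0.26, while isocitrate dehydrogenase, Idh1, and transaldolase, Taldo1, were each lower (-0.25). Tkt and Taldo1 do not themselves produce NADPH. The 2 genes not called were G6pdx and Pgd (0.16 and 0.11, adjusted p of 0.296 and 0.306 from edgeR). Idh1 was not called from kidney 2 alone (-0.18, adjusted p = 0.19 from edgeR).

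The detoxification and export list held the most rises, with 10 of 24 tested genes higher, 4 lower and 10 not called, and a median of 0.21. Aldehyde oxidase, Aox1, stood at 7.14, 5.62 and 7.73 CPM in the TG+ mice and at 0.643, 0.613 and 0.389 CPM in the TG- mice (log2 fold change 3.62 ± 0.21 SE, adjusted p = 3.66e-05 from edgeR). Akr1b8, an aldo-keto reductase, rose from 1.54 to 6.25 CPM (2.02 ± 0.22 SE), and the epoxide hydrolase Ephx1 rose from 28.7 ± 0.958 to 70.3 ± 2.92 CPM (SD, n = 3; 1.29 ± 0.06 SE). Aldh1a1, an aldehyde dehydrogenase, rose by 1.16. Ugt1a6a, a glucuronosyltransferase whose reads cannot be told from those of the Ugt1a genes that share its exons, had the highest level and was lower (-0.38, 492 to 553 against 675 to 703 CPM). Gstm3 and Aldh3a1 had too few reads to test.

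Among 7 heme and iron targets, 1 was higher, 4 were lower and 2 were not called, with a median of -0.22. Hmox1, heme oxygenase, stood at 110, 71.9 and 90.0 CPM in the TG+ mice and at 54.9, 42.9 and 33.9 CPM in the TG- mice (log2 fold change 1.05 ± 0.20 SE, adjusted p = 0.00767 from edgeR), and it is a known target of HIF1α as well as of NRF2. The next enzyme of heme breakdown, biliverdin reductase A (Blvra), fell by 0.45 on the log2 scale, and both ferritin chains were lower, Ftl1 by -0.38 and Fth1 by -0.22, as was Fech, which inserts iron into heme (-0.32). Fth1 was not called from kidney 1 or kidney 2 alone (adjusted p of 0.0666 and 0.0567 from edgeR). Ftl1 overlaps an exon of Gm22133.

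Of 11 tested superoxide, catalase and glutathione peroxidase genes, 2 were lower and 9 were not called, with a median of -0.16. Gpx1, the main cytosolic glutathione peroxidase, fell from 1574 ± 161 to 1095 ± 59.1 CPM (SD, n = 3; log2 fold change -0.52 ± 0.08 SE, adjusted p = 0.00371 from edgeR), and catalase, Cat, was lower by -0.32. Gpx3, the secreted peroxidase of the proximal tubule and the most highly counted gene of the list, stood at 19630 to 20750 against 22010 to 23410 CPM, which did not pass the test (-0.17, adjusted p = 0.0641 from edgeR), although upper-quartile scaling (0.0467), DESeq2's test (0.0148) and each kidney as its own library (0.0125) called it lower. Gpx2 had 0 reads in every mouse.

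**Figure D4:**
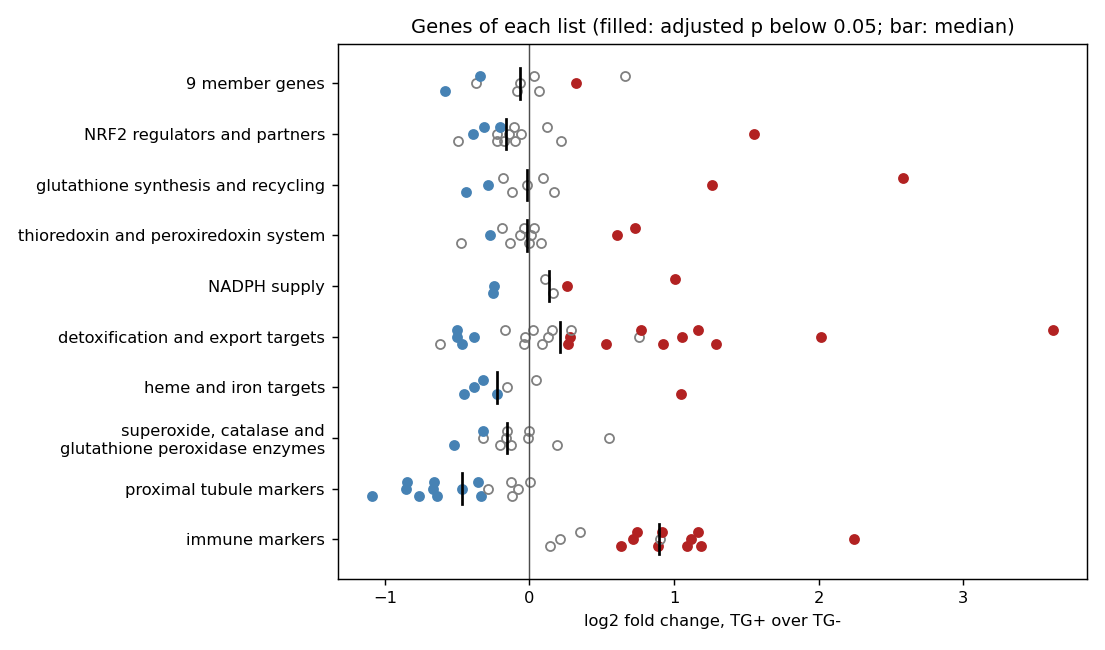
Log2 fold change, TG+ over TG-, of each tested gene (circles, filled where the adjusted p was below 0.05, red higher and blue lower) in the 9 genes, the 7 pathway lists and 2 marker lists, with the median as a bar. The medians of the pathway lists lie between -0.22 and 0.21, against -0.46 for the proximal tubule markers and 0.90 for the immune markers.

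The genes whose log2 CPM over the 12 libraries was most like that of Nqo1, among 16179 compared, were Adhfe1, Coasy, Pzp, Grina and Gstz1, with Pearson correlations of 0.992 to 0.993. The libraries fall into the 2 genotypes, so these values describe mainly the shared difference between them. Gstz1, a glutathione transferase that also acts in tyrosine breakdown, stood at 197 to 208 CPM in TG+ and 282 to 293 CPM in TG- mice. Adhfe1, Coasy and Grina differed by log2 fold changes of -0.55, -0.58 and -0.51, near that of Nqo1, and Pzp by -1.67.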

How the data were processed

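RNA was sequenced by the authors as 51-bp reads from 12 libraries, with the 2 kidneys of each of 6 mice. The authors deposited a table with the read count of 37681 Ensembl genes per library, not normalized, and RPKM values that the authors scaled to gene length and sequencing depth after adding 1 to each count. Per the study's methods the Tuxedo tools were used, and per the submitters' processing notes the build was mm9. The counting program, annotation and handling of strand are not given in the sources used here. The deposited fold changes, p-values and q-values compare the genotypes and were not used, nor were the log2 RPKM columns.

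Counts of the 2 kidneys were summed per mouse, filtered with filterByExpr, scaled by TMM (factors 0.944 to 1.07) and tested with edgeR 4.0.16's quasi-likelihood test (R 4.3.3, limma 3.58.1), with Benjamini-Hochberg adjustment over 19399 genes. Standard errors are the log2 fold change divided by the square root of F. An exact permutation test over 20 assignments of mice was added. DESeq2 1.42.0, other scalings, no filter, single kidneys, a replicate block and leaving out each mouse were alternatives. The p-values measure the spread between the mice, which are the replicates. Counting error is not covered by an interval of its own. The procedure was tested on simulated data. Symbols and positions came from GENCODE M21 (GRCm38), matched by identifier for 32642 genes (86.6%), and promoters from RefSeq (GRCm38.p6). Python 3.11.15 (numpy 2.4.6, scipy 1.17.1, pandas 2.3.3, matplotlib 3.10.9) made tables and plots.

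Mouse numbers follow the order of the samples. The name of the deposited table lists 3 pairs of TG+ and TG- mice. Their deviations from the group means correlated by 0.389, 0.33 and -0.0657, against -0.416 to 0.0908 for TG+ and TG- mice not listed together. The pair at -0.0657 lay inside that range, so the main test did not pair the mice, and the replicate block was run as an alternative. The 9 genes, the gene lists and the markers were chosen with earlier results of these data known. The genes named are the 9 members, up to 4 called genes with the largest change and the gene with the highest level of each list, and the 5 genes most like Nqo1. Ndufa4l2, Car9, Hif1a, the marker genes and the genes that overlap others were named after their values were seen.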

Additional observations from a re-analysis of the deposited data

Results flagged for a closer look

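For the 9 genes in the 6 libraries of each genotype, 18 groups in all, 1 library stood apart. Prdx1 was at 319 CPM in kidney 1 of TG- mouse 3, against 337 to 344 CPM in the other 5 TG- libraries, a gap of 0.722 of the whole range, above Dixon's 95% limit for 6 values. Chance alone marks about 1 in 20 groups, and the 2 kidneys of a mouse are not independent. This library still lay above every TG+ library, and without TG- mouse 3 the log2 fold change of Prdx1 was -0.36.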

How the results depend on the processing

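Keap1, Nqo1 and Prdx1 kept their direction and their call under all 15 alternative fits. With each kidney as its own library, which treats kidneys of 1 mouse as independent, 5 of the 9 genes were called (Gclc and Osgin1 added) and 58 of the other pathway genes, against 3 and 36, while the share called among all genes went from 26.2% to 45.95%. At an adjusted p below 0.01, 20 of the other pathway genes were called (12 higher, 8 lower), beside 12.2% of all genes. Scaling by library size alone turned Nfe2l2 to 0.033 and Txnrd1 to 0.052 on the log2 scale, gave 2 higher and 2 lower calls among the 9 genes, and moved the share of higher genes among all calls from 58.6% to 82.7%. When single mice were left out, the log2 fold change lay between -0.02 and 0.098 for Gclm, between -0.14 and -0.0024 for Txnrd1, between -0.094 and 0.17 for Srxn1 and between -0.029 and 0.046 for Prdx5, which was also -0.011 and -0.018 without TG+ mouse 1 and TG+ mouse 3. Nfe2l2, Gclm, Txnrd1, Srxn1 and Prdx5 were not called in any of those fits. With the replicate block for pairs of mice, 4 of the 9 genes were called, Osgin1 being added (adjusted p = 0.00679 from edgeR), and 39 of the other pathway genes, Idh1 and Fth1 being lost among the named genes (0.0581 and 0.0659), beside 30.5% of all genes. From a single kidney, Amer1, Rbx1 and Fth1 (kidney 1) and Glrx, Idh1 and Fth1 (kidney 2) were not called, and Gclc (kidney 1) and Osgin1 (kidney 2) were. Ggt1 was called by DESeq2 and with each kidney as its own library, and Sqstm1 by the latter. The cause of these changes was not tested. Among the fold changes of named genes, 523 kept direction and side of the threshold, 20 passed it, 50 fell short of it and 7 reversed. Each of the 9 genes had at least 1833 reads in every mouse.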

Other observations

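Gclc varied among mice of the same genotype more than the other 8 genes. The genes whose log2 CPM over the 12 libraries was most like that of Gclc were looked up after its values were seen, and were Slc6a15, Lpcat4, Coro2a, Tchh and Ncald, with Pearson correlations of 0.913 to 0.94 over libraries that share mice in pairs. Slc6a15, a transporter of neutral amino acids, stood at 53.9, 43.4 and 40.7 CPM in the TG+ mice and at 32.1, 42.2 and 36.6 CPM in the TG- mice. Coro2a, a coronin, stood at 25.2, 17.4 and 14.2 CPM in the TG+ mice and at 9.14, 12.8 and 11.3 CPM in the TG- mice. As for Gclc, TG+ mouse 1 was the highest of the 6 mice in both genes and TG- mouse 2 the highest of the TG- mice. Both genes were picked for their likeness to Gclc over these same libraries, so this shared order follows from the choice.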
